A study of Mus musculus with 12 samples.

Results

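The effect of deleting Hes1 was examined in wild type osteoclasts of the mouse, large cells with many nuclei that dissolve bone. By their sample titles, 3 libraries carried the Hes1 deletion and 3 carried a Hes1 gene flanked by loxP sites, here called Hes1 loxP, in which the gene is intact. These are 6 of the 12 RNA-seq libraries of the study. The other 6 are Hes1 deletion and Hes1 loxP libraries of a Notch2 mutant, 3 each, whose mutation the labels do not name.

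All groups came from male mice of 7 to 8 weeks, described in the design text as sex-matched littermates. Marrow macrophages received the growth factor M-CSF (30 ng/ml), and from day 3 they were kept in M-CSF and RANKL for 4 days until osteoclasts had formed. The 3 samples of a group are labelled as biological replicates, and whether a culture held cells of 1 mouse or of several was not given in the sources used here. Nor was the recombinase that deleted Hes1, the promoter that drove it, or whether the Hes1 loxP mice carried it. These are cultures of whole wells, so any undeleted precursors, macrophages or stromal cells are measured together with the osteoclasts.

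Hes1 is a basic helix-loop-helix protein that represses genes by binding their promoters and recruiting Groucho (TLE) co-repressors. It is a classical target of Notch: ligand binding frees the receptor's intracellular domain, which joins RBPJ on DNA and switches on Hes and Hey genes, and these in turn shut down others, Hes1 itself included. Osteoclasts form when M-CSF and RANKL act on macrophage precursors through NFATc1, fuse, seal to bone and secrete acid and cathepsin K, the protease that digests bone collagen.

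The 6 libraries held 13873032 to 19293772 counts assigned to genes, and 0.949 to 1.32% of these were mitochondrial. Levels are given as CPM (counts scaled by each library's assigned total), and levels of different genes are compared only as length-scaled CPM, in which counts are divided by exon length before scaling. On that scale Ctsk, Mmp9 and Acp5 (the TRAP enzyme) were among the 5 highest genes in all 6 libraries, and the fusion genes Dcstamp and Ocstamp, the receptor Oscar and the regulator Nfatc1 ranked between 258 and 462. In a principal component analysis of the 6 libraries the first 2 axes held 24.2% and 23.8% of the variance. The first placed all 3 deletion libraries on one side, and the second placed deletion replicate 3, at -19.7, away from deletion replicates 1 and 2, at 12.4 and 10.8. LoxP replicate 1 also lay apart from loxP replicates 2 and 3. It was at -21.3 against -7.46 and -5.07 on the first axis, and at 11.9 against -9.58 and -5.81 on the second. The count of called genes is given below with and without deletion replicate 3, as are examples of genes whose call rests on it.

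Hes1 itself (ENSMUSG00000022528, chromosome 16, 30064384 to 30067796, GRCm38) was scarce even where intact. The Hes1 loxP libraries held 6, 11 and 6 Hes1 counts (0.432, 0.570 and 0.334 CPM), and the deletion libraries held 0, 0 and 2 (0, 0 and 0.125 CPM). Every loxP library was above every deletion library, but all 6 values are a few reads. The deletion group held 0.0865 times the loxP level, with a 95% counting interval of 0.00988 to 0.350. A two-sided exact permutation test gave p = 0.1, the smallest that 3 against 3 libraries allow. Without deletion replicate 3 no Hes1 read remained in the deletion group, and the ratio, set against a group floor of 3 counts, was at most 0.188. Such intervals and floors cover counting error only. In Notch2 mutant cells the counts were 3, 2 and 2 in loxP and 0, 1 and 1 in deletion libraries. With both genotypes together, 6 libraries against 6, the ratio was 0.136 (0.0348 to 0.386, exact permutation p = 0.00649). The permutations did not keep the genotypes apart.

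Hes1 was too scarce for the test over all genes, and no member of the Hes and Hey family was called. Of 12 family members 4 were abundant enough to test. Bhlhe40, a Hes-related repressor with the highest length-scaled level of the 4, stood at 290, 290 and 308 CPM with Hes1 loxP and 308, 313 and 296 CPM after deletion, a log2 fold change of 0.03 ± 0.05 (SE; 95% interval -0.08 to 0.14). Hes6, which opposes Hes1 in other tissues, was at -0.11 ± 0.13 (-0.38 to 0.17). Both ranges overlapped between the groups. Bhlhe41 and Helt were at -0.16 ± 0.22 and -0.26 ± 0.42, intervals too wide to read. Hes5, Hes7, Hes2, Hey1, Hey2 and Heyl each had only a few reads in any of the 6 libraries (0 to 5), and Hes3 had 0 in all 12 libraries.

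Across the transcriptome few genes differed. Genes were tested with the edgeR quasi-likelihood F-test, with log2 fold changes given as deletion minus loxP and p-values adjusted by Benjamini-Hochberg over 13403 genes. At an adjusted p under 0.05 it called 5 genes, 0.0373% of those tested. These were 3 higher (Celf3, Hist1h2al and Cav1) and 2 lower (Ctsk and Pf4). The median gene had an absolute log2 fold change of 0.07 and an SE of 0.09. The 95% interval lay within 0.5 on the log2 scale, in both directions, for 9652 genes (72%), and for 99.3% of the 5786 genes with a mean log2 CPM of 5 or more. At an unadjusted p under 0.05 there were 795 genes (5.93%), 345 higher and 450 lower.

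**Figure D1:**
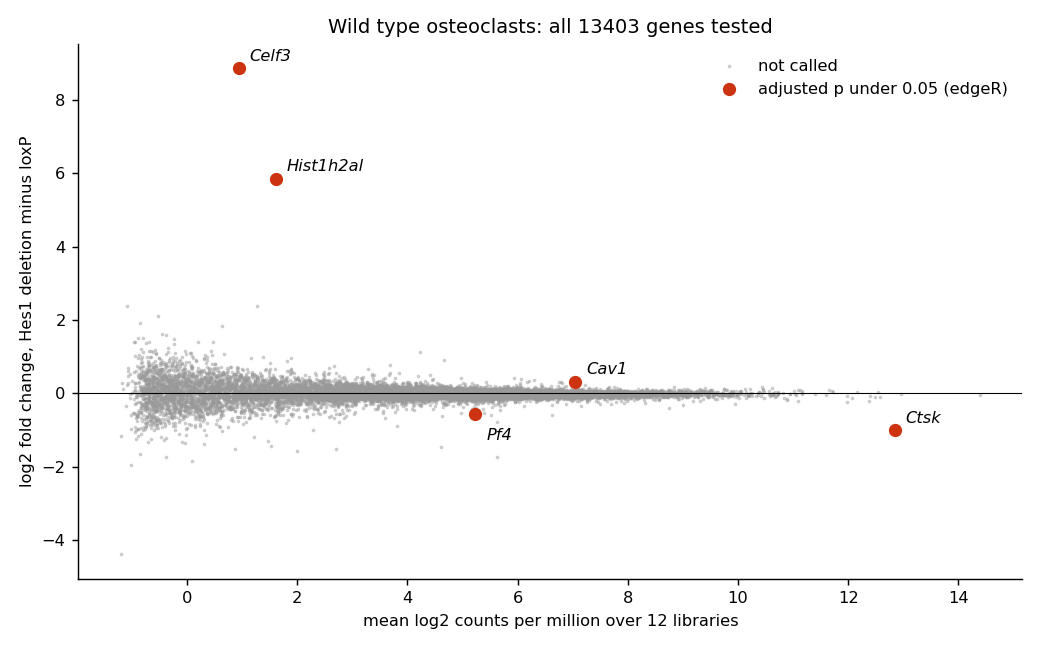
Log2 fold change of Hes1 deletion against Hes1 loxP in wild type osteoclasts (vertical axis) against mean log2 CPM over the 12 libraries (horizontal axis), 1 point per gene. The 5 called genes are red and named. Ctsk lies at the far right, among the most abundant genes, while Celf3 and Hist1h2al lie at the left at very low abundance.

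Ctsk, cathepsin K (ENSMUSG00000028111, chromosome 3, 95499256 to 95509362, GRCm38), had the smallest adjusted p. It stood at 8820, 9020 and 9237 CPM with Hes1 loxP and at 4937, 4750 and 4071 CPM after deletion. The groups were far apart, and the replicates of each lay close together. The log2 fold change was -0.99 ± 0.07 (SE; 95% interval -1.14 to -0.85; edgeR adjusted p = 4.84e-07). On the length-scaled levels Ctsk was the highest gene of all in each loxP library and ranked 4 or 5 in the deletion libraries, behind Mmp9 in each of them. In Notch2 mutant cells, in libraries that share none with these, Ctsk stood at 10367, 10394 and 11132 CPM with loxP and at 4973, 4876 and 5294 CPM after deletion, -1.11 ± 0.07 (edgeR adjusted p = 8.89e-08). The difference of the effect between the genotypes had an unadjusted edgeR p of 0.27. Ctsk is also a locus into which Cre recombinase has been inserted in mouse lines made to delete genes in osteoclasts, and whether these mice carried such an allele was not given in the sources used here. Any part of such an allele in the lower Ctsk counts was not tested.

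Genes around Ctsk were therefore read as well. Within 1.5 megabases of it 77 genes were tested. Of these 12 were higher and 5 lower at an unadjusted p under 0.05, together 22.1% against 5.93% of all genes, and 1, Celf3, was called; the median log2 fold change was 0.01. The largest of the uncalled values were those of Tmod4, an actin filament capping protein, at 2.38 ± 0.62 (2.98 in the Notch2 mutant), and Selenbp2 at 1.62 ± 0.49 (1.13). The histone gene Hist2h2be was at -0.46 ± 0.13 (-0.66), and the adjacent transcripts Gm20633 and Gm20634 were at 1.39 ± 0.34 (0.94) and -1.37 ± 0.38 (-0.91). The edgeR adjusted p in wild type ranged from 0.394 to 0.539 over these 5 genes. The nearest upstream gene, Arnt, stood at -0.02 ± 0.05, and Ctss, cathepsin S, downstream of Ctsk, at -0.30 ± 0.09 (edgeR adjusted p = 0.516).

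Celf3, an RNA-binding splicing regulator best known from neurons (ENSMUSG00000028137, chromosome 3, 94478295 to 94492198), had 0 reads in each of the 3 loxP libraries and 74, 67 and 42 in the deletion libraries. With the loxP group set to a floor of 3 counts it was at least 60.7-fold higher. The bound was 37.8 without loxP replicate 2 and 39.3 without loxP replicate 3, since fewer counts then stand behind the floor. Its deletion level was only 2.63 to 4.28 CPM. In Notch2 mutant cells the counts were 0, 3 and 1 against 65, 47 and 58, a ratio of 44.6 (counting interval 17.1 to 165). Hist1h2al, a copy of histone H2A that the annotation calls a processed pseudogene (ENSMUSG00000091383, chromosome 13, 51202727 to 51203065), had 1, 2 and 2 counts with loxP and 120, 135 and 65 after deletion, a ratio of 63.7 (27 to 197). In the mutant it had 1, 5 and 0 against 77, 79 and 98 counts. Both genes thus went from nearly no reads to a low level in all 6 deletion libraries, whatever the Notch2 genotype. They passed the expression filter only through the deletion libraries. Both identities are uncertain. Histone H2A genes exist in near-identical copies between which reads can be split, and each of the 2 genes overlaps an antisense gene, Riiad1 and Gm44341, while the strand setting of the counting was not given in the sources used here.

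Pf4, platelet factor 4, a chemokine stored in platelets and also made by macrophages (ENSMUSG00000029373, chromosome 5, 90772435 to 90773383), fell after deletion. It stood at 46.7, 53.9 and 53.8 CPM with loxP and at 33, 36.6 and 36 CPM after deletion, a log2 fold change of -0.57 ± 0.08 (-0.74 to -0.40; edgeR adjusted p = 0.00609). In Notch2 mutant cells the levels were 33.6, 32.4 and 28.4 CPM with loxP and 30.6, 35.4 and 28.5 CPM after deletion, -0.03 ± 0.09. The wild type loxP group was the one that stood apart, for the other 9 libraries lay between 28.4 and 36.6 CPM. The difference of the effect had an unadjusted edgeR p of 0.000242, which did not pass adjustment (adjusted p = 0.999). Pf4 was no longer called without loxP replicate 2, loxP replicate 3 or deletion replicate 1 (edgeR adjusted p up to 0.0840). Among 13 megakaryocyte and platelet markers 7 were tested and Pf4 alone was called. Of these 7 markers 5 lay above 0 and 2 below, with a median log2 fold change of 0.10. The summed level of the list was 63.6 to 69.4 CPM with loxP and 47.5 to 53.5 CPM after deletion, most of it Pf4. The defining markers Itga2b and Tubb1 were at no more than 1.82 and 1.07 CPM in any of the 6 libraries.

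Cav1, caveolin 1, the scaffold protein of the membrane pits called caveolae (ENSMUSG00000007655, chromosome 6, 17306335 to 17341452), rose. It stood at 128, 125 and 116 CPM with loxP and at 151, 160 and 157 CPM after deletion, so the groups did not overlap. The log2 fold change was 0.32 ± 0.06 (0.21 to 0.44; edgeR adjusted p = 0.0438). It is a call at the edge of the threshold: leaving out any wild type library other than deletion replicate 3 ended it, and the edgeR adjusted p reached 0.392. Cav1 in the Notch2 mutant was at 111, 110 and 125 CPM with loxP and 136, 134 and 130 CPM after deletion, 0.17 ± 0.06, which was not called (edgeR adjusted p = 0.816), and the difference of the effect had an unadjusted edgeR p of 0.0676. Its partners in caveolae stayed close to their loxP levels. Cav2 was at -0.01 ± 0.05 (-0.12 to 0.10) and Cavin1 at 0.02 ± 0.13 (-0.27 to 0.30). Cav1 is also made by stromal cells, whose summed markers were higher in the deletion libraries, at 375 to 398 CPM against 290 to 338 CPM with loxP. All 15 of 15 tested markers of 20 had a log2 fold change above 0, and 0 were called. Their part in the Cav1 result was not tested.

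**Figure D2:**
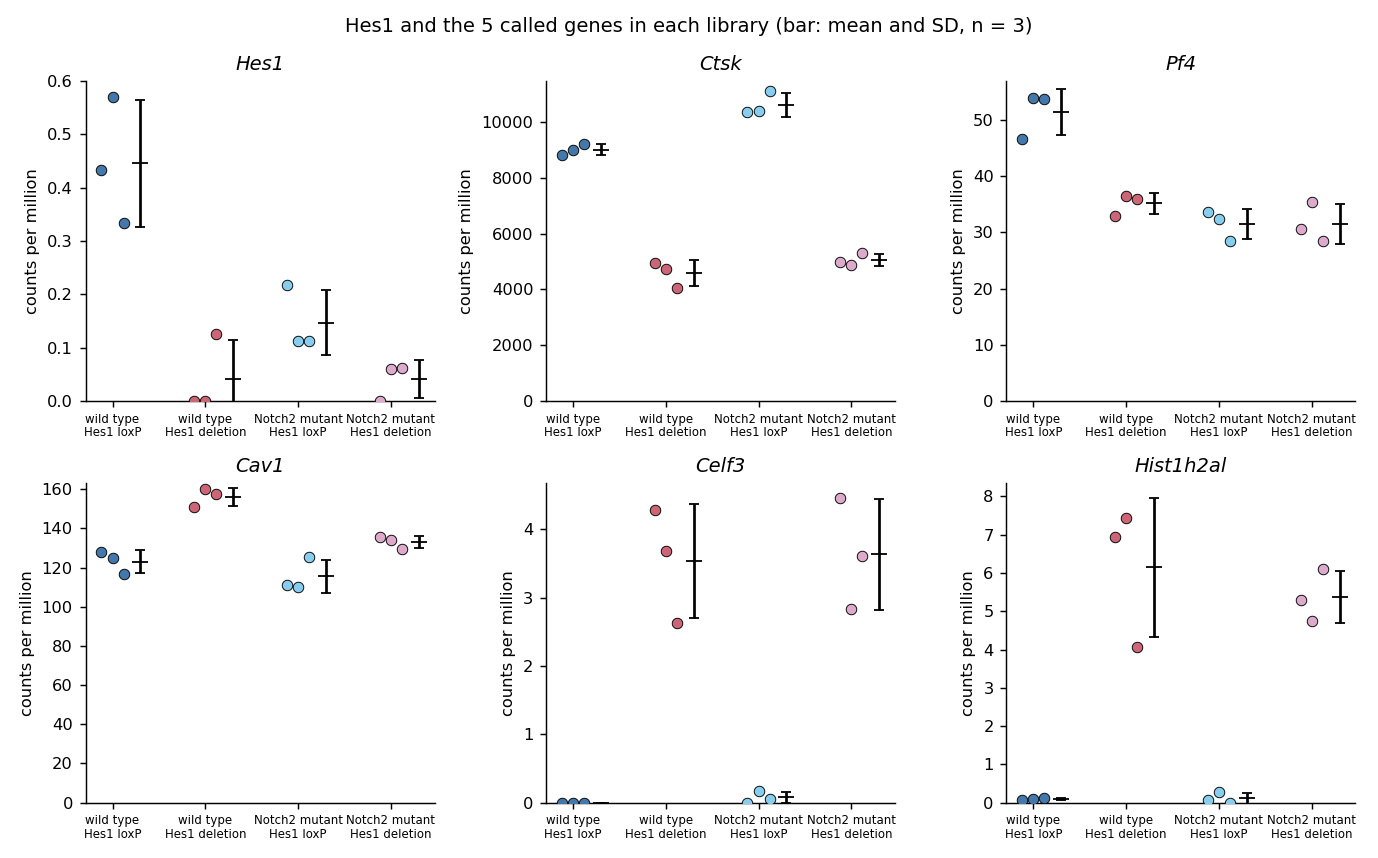
CPM of Hes1 and the 5 called genes in each library of the 4 groups, 1 point per library, with the mean and SD of 3 libraries beside them. Ctsk, Celf3 and Hist1h2al separate deletion from loxP libraries in both Notch2 genotypes, while Pf4 is high in the wild type Hes1 loxP group alone.

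The promoters of the called genes were read for letters that Hes1 and its pathway are known to bind, and 4 of the 5 genes had an entry among the RefSeq promoter sequences (GRCm38.p6). The motifs were the N box CACNAG, the class C site CACGCG and the RBPJ core TGGGAA, searched on both strands in the 250 bases before the start. They occur in 36.7%, 7.62% and 21.6% of 32851 promoters of that length. The Ctsk window (chr3:95498960-95499209) held none of the 3, and neither did that of Celf3. The Pf4 window (chr5:90772185-90772434) held 1 N box, starting 36 bases before the start, and that of Cav1 (chr6:17306085-17306334; 2 starts are listed) held 1 RBPJ core, 213 bases before it. The 3 windows are shown for the called genes with a single identity, 5′ to 3′ on the plus strand, with matches in capitals.
Ctsk: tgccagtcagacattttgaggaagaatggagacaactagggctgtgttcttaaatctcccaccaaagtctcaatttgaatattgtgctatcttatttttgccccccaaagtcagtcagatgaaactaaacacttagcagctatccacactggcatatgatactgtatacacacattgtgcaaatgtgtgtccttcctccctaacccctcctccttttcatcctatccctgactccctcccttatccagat
Pf4: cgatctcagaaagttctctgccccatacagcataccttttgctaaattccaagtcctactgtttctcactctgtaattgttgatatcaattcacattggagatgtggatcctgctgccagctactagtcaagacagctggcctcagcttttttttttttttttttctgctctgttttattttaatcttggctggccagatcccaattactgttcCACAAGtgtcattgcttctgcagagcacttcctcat
Cav1: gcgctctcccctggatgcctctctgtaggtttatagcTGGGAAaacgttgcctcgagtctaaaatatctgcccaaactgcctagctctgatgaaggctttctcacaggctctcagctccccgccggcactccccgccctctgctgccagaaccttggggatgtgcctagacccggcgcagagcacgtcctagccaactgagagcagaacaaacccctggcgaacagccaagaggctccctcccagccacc
A match describes these letters only.

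Beyond the calls, the naming rule takes the 10 higher and 10 lower genes with the smallest p among those with a mean log2 CPM of 1 or more, groups that do not overlap and no clone-type name, which leaves out Celf3. Groups did not overlap for 1455 of all genes tested (10.9%). Of these 20 genes 16 were not called. Closest to the threshold was Slpi, a secreted inhibitor of neutrophil proteases, at 63.6, 52.0 and 56.1 CPM with loxP and 40.5, 39.8 and 40.6 CPM after deletion, -0.52 ± 0.09 (edgeR adjusted p = 0.0642). In the Notch2 mutant Slpi was at 0.03 ± 0.10. The monocyte chemoattractant Ccl12 stood at 7.06, 4.61 and 3.56 CPM against 1.56, 2.25 and 2.44 CPM, -1.28 ± 0.26 (edgeR adjusted p = 0.162), and the neutrophil chemoattractant Cxcl3 at -1.17 ± 0.26 (edgeR adjusted p = 0.316). In the mutant the same genes were at 0.38 ± 0.31 and 0.33 ± 0.29. The remaining lower genes were the cystine transporter Slc7a11 (-0.51), the acid phosphatase Acpp (-0.68), the transcription factor Glis3 (-0.56), the scavenger receptor Stab1 (-0.39) and Plekhg1 (-0.64).

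Among the higher genes that were not called, the membrane proteoglycan Cspg4 stood at 6.49, 5.03 and 5.17 CPM with loxP and at 8.79, 8.85 and 10.5 CPM after deletion, 0.75 ± 0.14 (edgeR adjusted p = 0.116), and at 0.58 ± 0.16 in the mutant. Tnn, the matrix protein tenascin N, was at 0.88 ± 0.21 in wild type and 1.40 ± 0.26 in mutant cells, called in neither (edgeR adjusted p = 0.382 and 0.0963). Myc, a growth regulator and Notch target, stood at 136, 134 and 145 CPM against 160, 158 and 175 CPM, 0.23 ± 0.06 (edgeR adjusted p = 0.382). Spn (0.32), Setd3 (0.38), Igf2bp3 (0.60), Cdc20 (0.19) and Gypc (0.52) complete the group.

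Side by side with the Notch2 mutant, 9 of the 10 higher and 6 of the 10 lower genes had the same sign there. For 10 of the 20 genes the 3 wild type loxP libraries lay outside the range of all 9 other libraries of the study, 8 of them lower genes, against 195 of all genes tested (1.45%). These were Pf4, Slpi, Ccl12, Slc7a11, Glis3, Cxcl3, Stab1 and Plekhg1, lower after deletion, and Igf2bp3 and Gypc, higher. The 20 genes were chosen on the wild type libraries, so part of that share comes with the choice. The naming rule also required groups that do not overlap, and all 195 genes lie among the 1455 with such groups. The share over all genes is therefore too low a base for these 20. The test of the difference between the genotypes called 0 of 13403 genes by edgeR (smallest adjusted p 0.999; 506 genes, 3.78%, at an unadjusted p under 0.05) and 0 by DESeq2 and limma-voom. It called 12 without wild type deletion replicate 3.

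**Figure D3:**
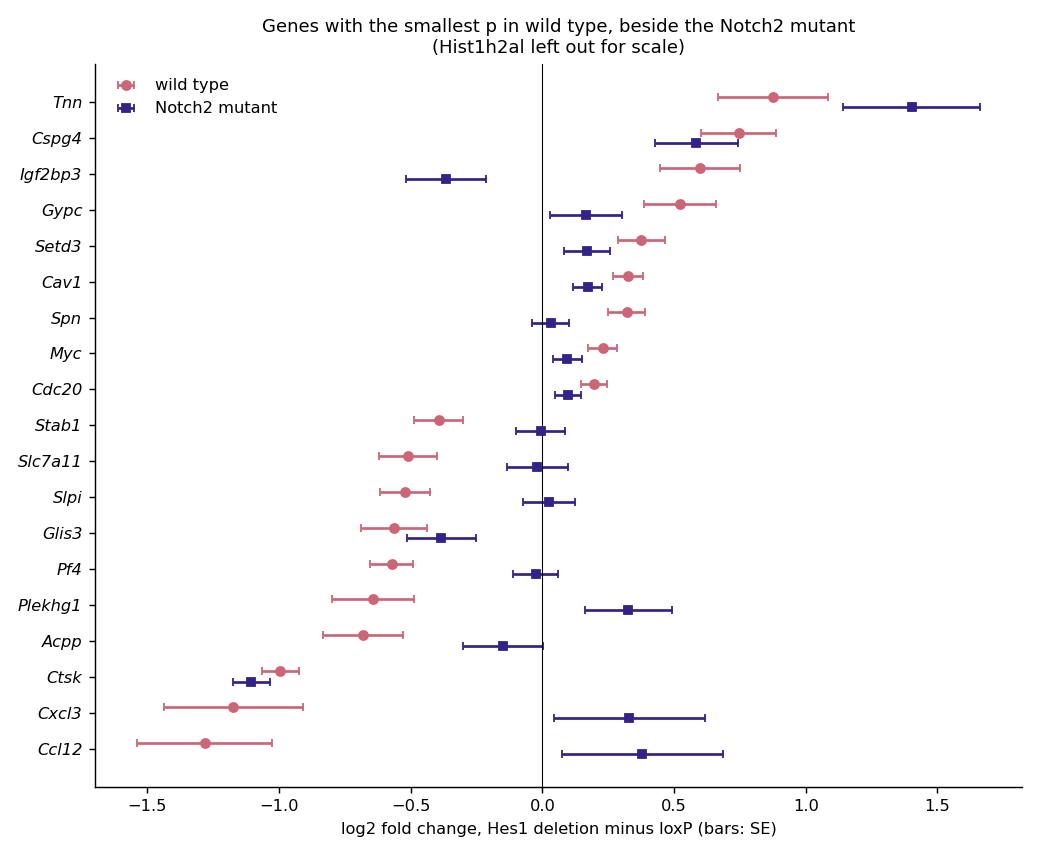
Log2 fold change of Hes1 deletion against Hes1 loxP, with its SE, for the genes with the smallest p in wild type osteoclasts, beside the same genes in Notch2 mutant osteoclasts. Ctsk lies near -1 in both, while Pf4, Slpi, Ccl12 and Cxcl3 lie between -1.28 and -0.52 in wild type and between -0.03 and 0.38 in the mutant.

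The gene lists give the wider picture, with each list's median log2 fold change set against 0.00 for all genes tested, 50.5% of which lay above 0. Of 14 TLE co-repressors, Id inhibitors and related partners of Hes1, 13 were tested and 0 were called (median -0.01), and 11 had intervals within 0.5. Tle1 was at 0.10 ± 0.10, Tle3 at -0.06 ± 0.10 and Tle4 at -0.07 ± 0.06. Id1, an inhibitor of helix-loop-helix proteins, stood at 11.5, 8.71 and 7.95 CPM against 6.94, 6.76 and 8.59 CPM, overlapping groups at -0.35 ± 0.15 (edgeR adjusted p = 0.809). Of 10 genes that Hes1 is known to repress in other cells only 3 were expressed enough to test. The cell cycle inhibitors Cdkn1b and Cdkn1c were at 0.10 ± 0.07 (-0.04 to 0.25) and 0.32 ± 0.28 (-0.27 to 0.91), and the lysosomal glucosidase Gaa at -0.08 ± 0.05 (-0.18 to 0.02). Il6, a cytokine on that list, had 1 count in the 6 libraries compared.

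Notch receptors, ligands and processing genes were tested for 24 of 27 members, and 0 were called (median -0.04). Notch2 stood at 161, 173 and 163 CPM with loxP and 161, 153 and 173 CPM after deletion, overlapping groups at -0.05 ± 0.06 (-0.16 to 0.07). Notch1 was at -0.21 ± 0.11 (-0.44 to 0.02) and the ligand Jag1 at -0.09 ± 0.07. The ligand Dll4 was sparse, with 57 counts over the loxP and 27 over the deletion libraries, a ratio of 0.471 (0.286 to 0.757), and was not called (edgeR adjusted p = 0.750). Mfng, a glycosyltransferase that modifies Notch receptors, stood at 20.3, 16.6 and 20.9 CPM against 27.8, 27.8 and 20.7 CPM, so that deletion replicate 3 lay among the loxP libraries (0.39 ± 0.12, edgeR adjusted p = 0.516). Without deletion replicate 3 Mfng was called, at 0.52 ± 0.10 (edgeR adjusted p = 0.0388), and it was at 0.02 in the Notch2 mutant. In the Notch transcription complex and its targets 15 of 18 genes were tested, 0 were called and all 15 had intervals within 0.5; Rbpj was at -0.08 ± 0.04 (-0.17 to 0.01).

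The osteoclast program outside Ctsk lay close to its loxP level, though more members of its lists lay below 0 than above. Of 21 tested M-CSF and RANK receptors and adaptors 0 were called, the median was -0.01 and 19 intervals lay within 0.5. Csf1r, the M-CSF receptor, was at -0.01 ± 0.05 and Tnfrsf11a, which encodes RANK, at -0.05 ± 0.04. Nfatc1, the master regulator of osteoclast formation, stood at 925, 966 and 1013 CPM with loxP and 968, 954 and 988 CPM after deletion, -0.02 ± 0.05 (-0.12 to 0.08). All 21 osteoclast transcription factors were tested, 0 were called, and the 3 with the smallest p were Fos (0.14 ± 0.05), Tfeb (0.18 ± 0.07) and Tfec (-0.16 ± 0.07; edgeR adjusted p 0.749 to 0.809). Repressors of osteoclast formation such as Irf8 (0.05 ± 0.10) and Bcl6 (0.07 ± 0.07) had a median of -0.04, with 0 of 18 called.

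Fusion and resorption genes were read in the same way. Below 0 lay 14 of 16 fusion genes, 16 of 18 resorption genes with Ctsk, and 13 of 17 vacuolar ATPase subunits. The same held for 12 of 14 other cathepsins and partners and 16 of 23 podosome and actin ring genes. Over all genes tested 50.5% lay above 0. The medians of these lists were small, between -0.05 and -0.03. The fusion proteins Dcstamp and Ocstamp were at -0.02 ± 0.06 (-0.15 to 0.10) and -0.04 ± 0.06 (-0.16 to 0.08), and 0 of 16 tested fusion genes were called. Of 18 resorption genes Ctsk alone was called. Acp5 stood at 7182, 6878 and 7440 CPM against 7645, 7726 and 6226 CPM, with deletion replicate 3 lowest and replicates 1 and 2 highest (-0.01 ± 0.08; -0.18 to 0.15). Mmp9 was at -0.04 ± 0.08 (-0.21 to 0.14) and Car2, which makes the acid, at -0.12 ± 0.06 (-0.24 to 0.00). All 17 vacuolar ATPase subunits, parts of the proton pump, had intervals within 0.5 (median -0.04). Of 14 other cathepsins and partners tested, 0 were called (median -0.05), with Ctsb at -0.05 ± 0.07 and Ctsl at -0.15 ± 0.09. Podosome and actin ring genes, such as Src (-0.04 ± 0.05), had 23 of 23 intervals within 0.5. Of 13 tested coupling factors, by which osteoclasts signal to bone-forming cells, Ctsk was again the one called; Cthrc1 was at -0.41 ± 0.18 (edgeR adjusted p = 0.817).

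**Figure D4:**
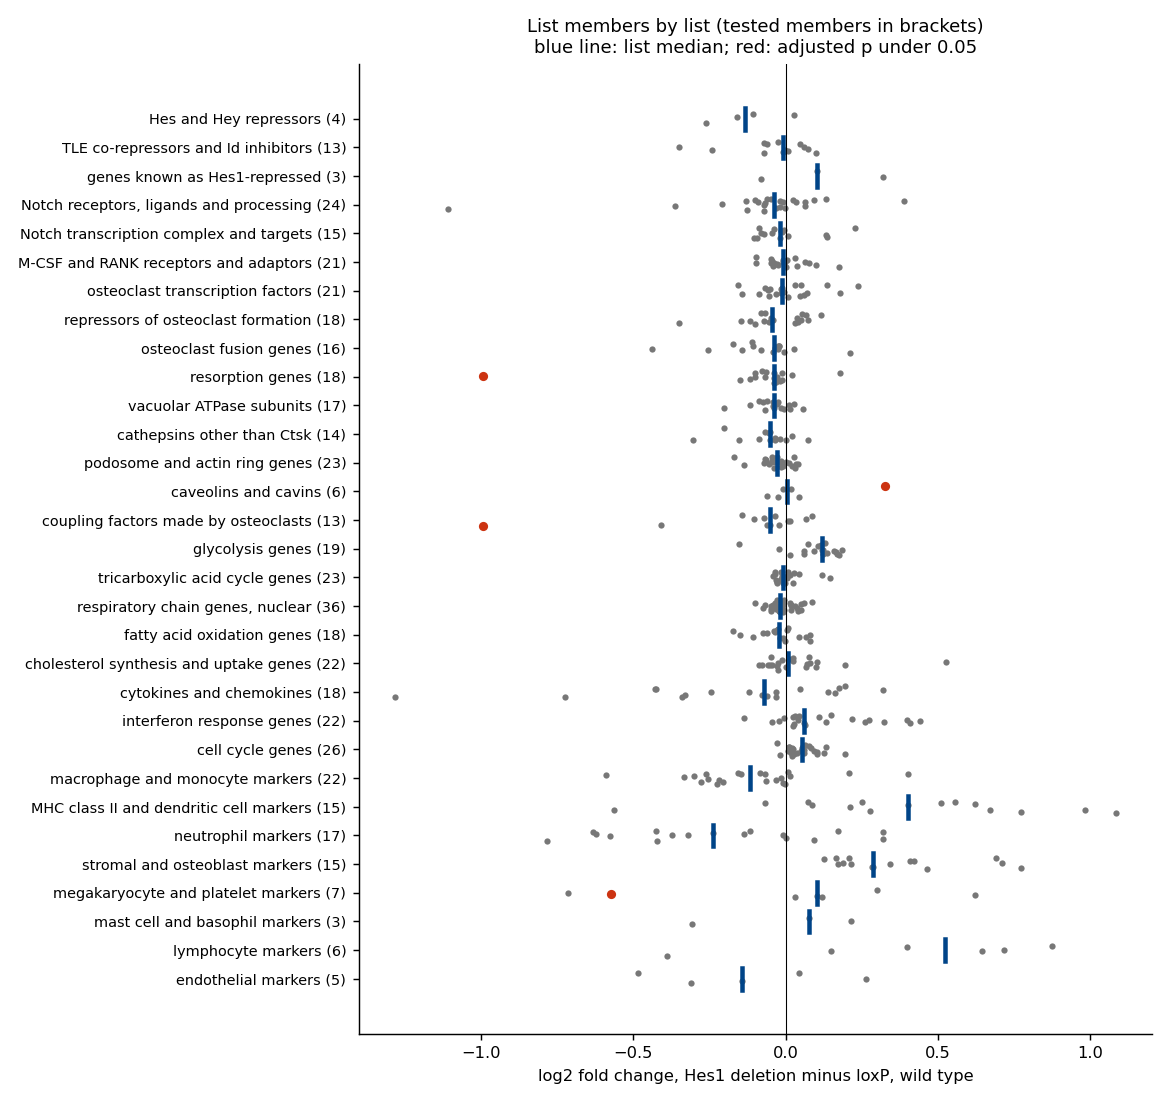
Log2 fold change of every tested member of 31 gene lists, Hes1 deletion against Hes1 loxP in wild type osteoclasts, 1 point per gene, with the list median as a blue line and called genes in red. Medians of the osteoclast, Notch and mitochondrial lists lie within 0.15 of 0, and the marker lists of other cell types spread farther.

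Metabolic lists were mostly centred on 0 as well. Tricarboxylic acid cycle genes (23 tested), nuclear respiratory chain genes (36) and cholesterol genes (22) had 0 called and medians of -0.01, -0.02 and 0.01, and all intervals of the first and second list lay within 0.5. Glycolysis genes had 17 of 19 members above 0 and a median of 0.12, with 0 called, all intervals within 0.5 and a median of -0.09 in the Notch2 mutant. The enzyme Hk2 stood at 66.7, 71.9 and 60.6 CPM against 81.5, 73.2 and 72.4 CPM (0.17 ± 0.09; edgeR adjusted p = 0.879), and the hypoxia regulator Hif1a at -0.15 ± 0.06. The summed level of the glycolysis list was 15947 to 17924 CPM with loxP and 15357 to 19842 CPM after deletion, overlapping ranges. Its median ranged from 0.02 without deletion replicate 2 to 0.21 without deletion replicate 3. Cell cycle genes had 24 of 26 members above 0, but their median was 0.05, as in the Notch2 mutant (0.05), and 0 were called. Interferon response genes had 18 of 22 members above 0 and a median of 0.06, with Usp18 at 0.41 ± 0.16 and Xaf1 at 0.28 ± 0.11. None was called, and 3 were higher and 0 lower at an unadjusted p under 0.05, against 2.57% and 3.36% of all genes. The median ranged from -0.03 without loxP replicate 3 up to 0.27 over the alternatives, and was 0.40 in the Notch2 mutant. The summed level there was 611 to 837 CPM with loxP and 864 to 947 CPM after deletion. In wild type the ranges overlapped, 813 to 1119 and 866 to 1050 CPM.

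Markers of other cells that marrow cultures can hold had list medians farther from 0 than the osteoclast lists. No gene among them other than Pf4 was called with all libraries. Most of these values are less precise. Intervals lay within 0.5 for 2 of 15 MHC class II and dendritic cell, 3 of 17 neutrophil and 0 of 15 stromal members. Among macrophage and monocyte markers 15 of 22 did. MHC class II and dendritic cell markers had 13 of 15 tested members above 0 and a median of 0.40; 5 were higher and 1 lower at an unadjusted p under 0.05, against 2.57% and 3.36% of all genes. H2-Ab1, a chain of the class II molecule, stood at 17.9, 14 and 16.5 CPM with loxP and 19.8, 28.7 and 20.9 CPM after deletion, groups that did not overlap (0.51 ± 0.16; edgeR adjusted p = 0.547). H2-Aa was at 0.77 ± 0.25 and H2-Eb1 at 0.56 ± 0.18. Flt3, the growth factor receptor of dendritic cell precursors, had 27 counts over the loxP and 59 over the deletion libraries (ratio 2.17, 1.36 to 3.57; edgeR adjusted p = 0.552). The summed level of the list ranged from 117 to 172 CPM with loxP and from 161 to 213 CPM after deletion. Its median ranged from 0.25 to 0.57 over the alternatives and was -0.07 in the Notch2 mutant.

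Neutrophil granule genes leaned the other way. Of 17 tested, 12 were below 0 and the median was -0.24. At an unadjusted p under 0.05, 9 were lower and 0 higher, against 3.36% and 2.57% of all genes. Camp, an antimicrobial peptide, stood at 7.14, 9.59 and 12.1 CPM against 4.98, 5 and 7.21 CPM (-0.78 ± 0.20; edgeR adjusted p = 0.455), and Ngp, a granule protein, at 50.2, 56.5 and 75.4 CPM against 37.7, 37.1 and 49.8 CPM (-0.58 ± 0.15; edgeR adjusted p = 0.502). Replicate 3 was the highest library of its group for both. The early granule genes Mpo and Elane were at 0.00 ± 0.25 and -0.14 ± 0.22. The summed level of the list was 387 to 483 CPM with loxP and 300 to 401 CPM after deletion, and the median without loxP replicate 3 was -0.17. In the Notch2 mutant the median was -0.04.

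Macrophage and monocyte markers had 18 of 22 members below 0 and a median of -0.12. At an unadjusted p under 0.05, 8 were lower and 1 higher, against 3.36% and 2.57% of all genes. The scavenger receptor Msr1 stood at 406, 372 and 351 CPM against 293, 292 and 375 CPM (-0.25 ± 0.08, edgeR adjusted p = 0.516). Without deletion replicate 3 Msr1 was called, at -0.38 ± 0.06 (edgeR adjusted p = 0.00881), and it was at 0.14 in the Notch2 mutant. Mertk, a receptor for the uptake of dying cells, was at -0.30 ± 0.10, and the general markers Cd68 and Adgre1 were at 0.01 ± 0.07 and -0.15 ± 0.08. The median of the list ranged from -0.21 to -0.05 over the alternatives and was 0.06 in the Notch2 mutant. Among stromal and osteoblast markers Postn, a matrix protein, stood at 4.25, 6.17 and 5.51 CPM against 8.16, 9.29 and 8.90 CPM (0.69 ± 0.25; edgeR adjusted p = 0.699), and Col1a1 at 123, 117 and 112 CPM against 149, 139 and 146 CPM (0.28 ± 0.17; edgeR adjusted p = 0.903). The stromal list had a median of 0.29. Of its members 2 were higher and 0 lower at an unadjusted p under 0.05, against 2.57% and 3.36% of all genes. In the Notch2 mutant the stromal median was 0.38. Summed stromal levels there overlapped, at 134 to 279 CPM with loxP and 234 to 332 CPM after deletion. In whole cultures fewer cells of a type and less RNA per cell cannot be told apart. Lymphocyte, endothelial and mast cell markers summed to at most 26, 11.9 and 6.52 CPM in any of the 6 libraries, and of 10 erythroid markers 7 had 0 counts. The part of these cells in any result was not tested.

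Cytokines and chemokines had 0 of 18 tested members called and 12 below 0 (median -0.07, from -0.26 without deletion replicate 3 to 0.01 without deletion replicate 1; 0.12 in the mutant). The T cell costimulator ligand Tnfsf9 stood at 3.89, 4.51 and 4.95 CPM against 2.72, 2.80 and 2.69 CPM (-0.72 ± 0.22; edgeR adjusted p = 0.516). The monocyte chemoattractant Ccl2 shows how far 1 library weighed here. It stood at 72.2, 65.7 and 63.5 CPM with loxP and at 42.1, 38.6 and 81.3 CPM after deletion, so that deletion replicate 3 was the highest of the 6 and the other 2 deletion libraries were the lowest. With all libraries it was at -0.34 ± 0.18 (edgeR adjusted p = 0.879), and without deletion replicate 3 at -0.74 ± 0.11 (edgeR adjusted p = 0.00478).

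Leaving out deletion replicate 3 raised the count of called genes from 5 to 26 (0.19% of those tested). The 5 calls were kept, and 21 genes were added, 12 higher and 9 lower, with edgeR adjusted p-values of 0.00437 to 0.0464 against 0.316 to 0.943 with all libraries. These genes were chosen by the effect of replicate 3, so its distance from deletion replicates 1 and 2 comes with the choice and is given as a description. With no filter 17 of the 21 were called with all libraries, and under the other alternatives that keep replicate 3 none was. The genes below are examples chosen after seeing their values. Egln3, an oxygen-sensing hydroxylase, stood at 8.58, 7.05 and 6.73 CPM with loxP and at 13.5, 18.5 and 3.07 CPM after deletion. Bnip3, a mitochondrial death and mitophagy protein, stood at 105, 86.2 and 83.4 CPM against 140, 141 and 61.6 CPM, and the stress gene Ndrg1 at 41.7, 34.3 and 37.0 CPM against 54.7, 55.4 and 23.8 CPM. In each of these genes deletion replicates 1 and 2 were the highest of the 6 libraries and replicate 3 the lowest.

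Without that library Egln3 was at 1.11 ± 0.16, Gypc, a red cell membrane protein, at 0.68 ± 0.11, Ak4, an adenylate kinase, at 0.66 ± 0.13, Bnip3 at 0.61 ± 0.11 and Ndrg1 at 0.54 ± 0.11. In the mutant these were at -0.78, 0.16, -0.35, -0.20 and -0.27. Cx3cr1, the fractalkine receptor of monocytes and macrophages, was also among the added higher genes, at 63.2, 46.5 and 58.1 CPM against 80.6, 85.0 and 57.7 CPM (0.56 ± 0.11 without replicate 3). Among the added lower genes Stab1 stood at 559, 580 and 555 CPM against 391, 393 and 525 CPM, C5ar1, the complement C5a receptor, at 280, 289 and 304 CPM against 223, 222 and 321 CPM, and the endocytic adaptor Dab2 at 204, 225 and 214 CPM against 159, 160 and 234 CPM. For C5ar1 and Dab2 replicate 3 exceeded every loxP library, and for Stab1 it lay below them. Fth1, the iron storage protein ferritin heavy chain, was at -0.26 ± 0.05 without and -0.20 ± 0.05 with that library, where its groups did not overlap. With 2 deletion libraries left these are values of those libraries, and by the test as described none of the 21 genes was called with all 6.

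**Figure D5:**
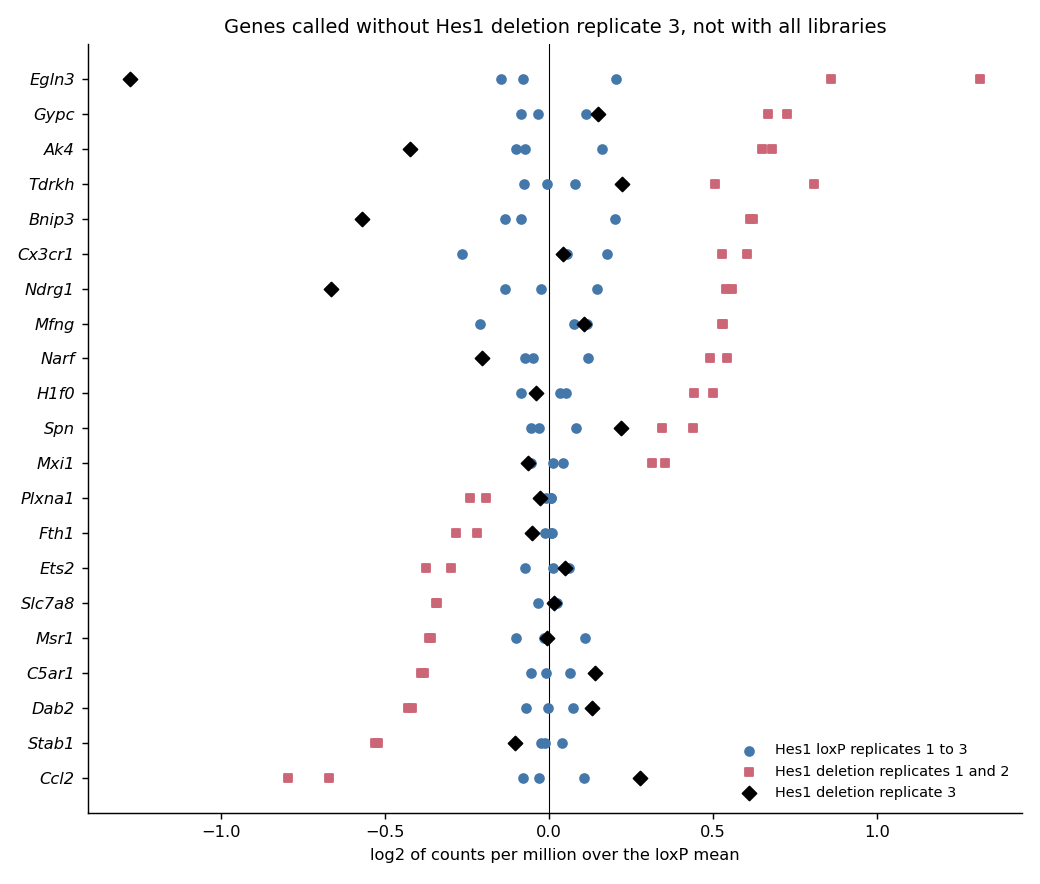
Log2 of CPM over the Hes1 loxP mean for the 21 genes called when wild type Hes1 deletion replicate 3 is left out and not with all libraries, 1 point per library. Deletion replicates 1 and 2 lie together on one side of the loxP libraries for every gene, while replicate 3 (black diamonds) lies within or beyond the loxP libraries for most.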

How the data were processed

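The mRNA libraries were strand-specific and read from both ends (75 bp) in a single pool, per the labels' protocols. The deposited tables hold raw, whole-number counts for each gene. The submitters' processing notes name the build GRCm38 and the tools HISAT2, SAMtools, Picard, HTSeq and DESeq2. Tool versions, annotation release and strand setting were not given in the sources used here. Each table held 55414 gene IDs and 5 summary rows (15.8 to 19.0% of each file's total), which were left out. GENCODE M21 named 52133 IDs; the others held at most 0.167% of a library.

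All 12 libraries entered 1 edgeR 4.0.16 fit (R 4.3.3, quasi-likelihood F-test, TMM, filterByExpr with minimum count 10 and minimum total 15) with a mean per group and no block, two-sided, called at an adjusted p under 0.05. CPM uses assigned counts without TMM. The SE is the log2 fold change over the root of F, and the interval (95%) uses its degrees of freedom. Counting intervals are exact binomial on the split of summed counts. Reads carry no molecular identifiers. In this fit the p-values set a difference against the spread between replicate libraries, estimated over all 12 libraries with information shared across genes. Whether each library stands for a single mouse was not given in the sources used here. The Notch2 mutant effect and the difference of effects came from the same fit. Hes1 fell below the filter.

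The members and lists were chosen with earlier results of these data known. Named genes are Hes1, Notch2, all called genes, the 10 higher and 10 lower by p described above, up to 8 members of each list, genes called with 1 library left out, and Hes and Hey members. Neighbours of Ctsk, and any further list members given, fall outside this rule and were chosen after seeing values. The alternatives tried were no filter, an average of 50 or more counts, RLE scaling, DESeq2 1.42.0 (without the edgeR filter), limma-voom (limma 3.58.1), a replicate block, only the 6 libraries compared, and each library left out. On counts simulated for this comparison over 13403 genes (13241 tested), with 200 changed, the fit recovered 92% of 1.5-fold and 98% of 2-fold changes. Of 205 calls 15 were false. The changed genes were drawn only from those averaging 50 or more counts, and no outlying library was simulated. These shares therefore do not cover scarcer genes or a library such as deletion replicate 3.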

Additional observations from a re-analysis of the deposited data

How the results depend on the processing

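The count of 5 called genes was 135 (45 higher, 90 lower of 25080) without a filter and 2 among genes averaging 50 or more counts, which removes Celf3 and Hist1h2al. It was 4 with RLE scaling, 6 by DESeq2, 6 by limma-voom and 6 with only the groups compared. With each wild type library left out it ranged from 3 to 26. It was 5 with a replicate block and 9 with the block and only the groups compared, an alternative chosen after seeing the data. Same-numbered libraries did not pair (correlations of their deviations 0.0206, -0.0770 and 0.00494). Slpi was called by DESeq2, limma-voom, the block and the 6-library fit. Ctsk was called under 14 of 14 alternatives, Celf3 and Hist1h2al under 13 of 13, Pf4 under 11 of 14 and Cav1 under 4 of 14. The 13 leave out the average of 50 or more counts, under which Celf3 and Hist1h2al were not tested. Both entered the main test only through the deletion libraries, where they are high. The difference of the effect between genotypes gave 0 genes except 63 with no filter, and with single libraries left out it ranged from 0 to 12, the 12 without wild type deletion replicate 3. The Hes1 ratio ranged from 0.0759 to 0.134 with single libraries left out, except that without deletion replicate 3, where no read was left, it is a bound of at most 0.188. It was 0.0853 with TMM-scaled libraries. With 6 against 6 libraries, permuted without regard to genotype, it was 0.136 and passed the threshold (exact permutation p = 0.00649). Over 40 genes and 556 alternative values, 489 kept their side of the threshold, 13 lost and 54 gained a call, and 0 changed sign. These 40 genes were largely chosen by a small p in the main fit or by a call gained without deletion replicate 3. Part of the gained calls and of the kept signs therefore comes with the choice. Of 31 list medians 17 kept their sign under all alternatives. Causes of these changes other than the removed genes and libraries were not tested. With 3 libraries a group, scarce genes such as Hes1, Dll4 and Flt3 are limited by their counts.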
